A study of Mus musculus with 2 samples.

Results

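Wide footprints found in both libraries are stretches of at least 30 bp inside open chromatin of mouse gastrocnemius muscle that were spared from DNase I cutting in each of 2 libraries. They were chosen by their width and overlap in the deposited footprint lists: at least 30 bp in one library, and an overlap of at least 50% of both lengths with a footprint of at least 30 bp in the other. The rule gave 10390 members, with the coordinates of replicate 1, among 338694 footprints in replicate 1 and 301069 in replicate 2. Members were thus 3.07% of the footprints of replicate 1. Width and recurrence are what the rule used, so they are described here and support nothing.

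DNase-seq cuts nuclei with DNase I and sequences the cut ends. Both libraries came from gastrocnemius tissue of female B6CASTF1/J mice, the F1 cross of C57BL/6J and CAST, at 14 days of age, with no treatment named. The labels call them biological replicates 1 and 2 from separate biosamples with a shared donor record, and name 3 females for each, so that a library may hold pooled animals. The label of replicate 2 names 2 sequencing instruments and that of replicate 1 names none, so instrument and replicate cannot be told apart. All tissue is of 1 kind, age and sex, and there is no second group to compare. The sources used here give no read totals, and whole tissue mixes the nuclei of muscle fibres, satellite cells, fibroblasts, vessels and nerve.

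A protein that sits on DNA shields bases from the nuclease and can leave a footprint, whose called width also depends on neighbouring proteins, on the depth of cuts and on the caller. CTCF is a protein with an array of zinc fingers that grips an unusually long site, blocks enhancers and anchors chromatin loops. Its middle fingers read a core sequence, and the other fingers can read an element upstream of that core. At promoters, Sp and KLF proteins bind GC boxes, NRF1 drives genes of mitochondria and growth, CREB binds the cAMP response element, and NFY binds CCAAT. In muscle, MyoD and myogenin bind the E-box CAGCTG, and MEF2 binds an AT-rich site.

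The sequences of distal members with a CTCF core are shown first, because their edges fall into 2 kinds. Distal means farther than 1000 bp from every protein-coding transcription start site (TSS). Capitals mark the core, and each sequence is written 5′ to 3′ on the strand where the core reads in this direction. These 3 lie in strong peaks and have a short upstream flank. All coordinates are mm10 (GRCm38), 1-based, and the letters are from the RefSeq sequence of that build.
Downstream of Rdh8, chr9:20831173-20831202, minus strand: acgtggCCACCAGGGGGCgctaggagctgg
Downstream of Bcan, chr3:87987133-87987162, minus strand: gctgtgaCCAGTAGAGGGCgctgcagatac
Downstream of Acvrl1, chr15:101145552-101145583, minus strand: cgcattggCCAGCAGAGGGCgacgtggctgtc

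The next 3 have a long upstream flank that holds TGCANT starting 17 bases before the core. Capitals mark this element and the core.
Upstream of Ptma, chr1:86501759-86501804, plus strand: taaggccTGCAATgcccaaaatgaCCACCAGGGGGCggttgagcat
Far from Rasl11b, chr5:74277938-74277978, minus strand: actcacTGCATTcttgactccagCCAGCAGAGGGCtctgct
Downstream of Srxn1, chr2:152112085-152112130, plus strand: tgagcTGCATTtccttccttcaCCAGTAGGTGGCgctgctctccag

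Promoter members carried other motifs, and those shown sat in the strongest peaks for their motif among members that overlap no annotated exon. Capitals mark a GC box of Sp and KLF proteins at Mplkip, the NRF1 site at Snrnp70, where 3 members of 1 peak hold it and the 2 outside exons are shown, the CREB site TGACGTCA at Gtf3c1, the NFY site at Bahcc1 and the ZNF143 site at Crebl2. All are on the plus strand of the genome.
Mplkip promoter, chr13:17694980-17695022: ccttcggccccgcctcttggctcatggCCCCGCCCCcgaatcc
Snrnp70 promoter, chr7:45395780-45395812: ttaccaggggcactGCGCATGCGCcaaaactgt
Snrnp70 promoter, chr7:45395844-45395873: ccggctgtcgtactGCGCATGCGtgatcgg
Gtf3c1 promoter, chr7:125707795-125707831: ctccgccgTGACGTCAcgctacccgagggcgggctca
Bahcc1 promoter, chr11:120232841-120232879: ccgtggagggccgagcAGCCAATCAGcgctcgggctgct
Crebl2 promoter, chr6:134830053-134830099: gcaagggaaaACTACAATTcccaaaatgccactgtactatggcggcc

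A separate set lay over tRNA genes. Capitals mark GTTCGANNC, the core of the B box, an internal promoter element that the factor TFIIIC binds for RNA polymerase III. Both are on the plus strand.
Leucine tRNA gene n-TLaag4, chr7:120917565-120917603: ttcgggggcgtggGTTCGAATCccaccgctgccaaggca
Tyrosine tRNA gene n-TYgta10, chr14:51089543-51089577: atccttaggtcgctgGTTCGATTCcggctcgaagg

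The 2 widest members in replicate 1 follow. The member near Sec22c holds 2 CTCF cores (capitals) by its edges in replicate 1. Its footprint in replicate 2 ends before the right-hand core. The widest member, near Ndufb4, holds no exact match to the 33 motifs, but a CTCF core with 1 mismatch lies in it, not wholly within the 50 bp window used for the counts. There too the footprint in replicate 2 ends before this core. Both members are on the plus strand.
Upstream of Sec22c, chr9:121697878-121697952: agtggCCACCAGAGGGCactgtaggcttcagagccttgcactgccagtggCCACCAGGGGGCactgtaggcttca
Upstream of Ndufb4, chr16:37684809-37684888: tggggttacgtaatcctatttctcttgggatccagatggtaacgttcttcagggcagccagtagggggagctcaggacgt

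The last set is at genes of muscle and its regulators. Capitals mark GGGCGG and CCAAT at Mef2d, a run of T and GGGCGG at Mylpf, the CREB and SRF sites at Ldha, the MEF2 site at Jun, and a CTCF core with 1 mismatch near Casq1 and Myl2. All are on the plus strand.
Mef2d promoter, chr3:88142275-88142322: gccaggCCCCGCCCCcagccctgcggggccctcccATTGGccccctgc
Mylpf promoter, chr7:127208711-127208761: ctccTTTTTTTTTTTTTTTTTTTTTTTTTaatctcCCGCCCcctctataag
Ldha promoter, chr7:46845789-46845827: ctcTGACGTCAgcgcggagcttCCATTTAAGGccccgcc
Jun promoter, chr4:95052239-95052273: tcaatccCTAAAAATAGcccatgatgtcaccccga
Intron of Casq1, chr1:172217311-172217343: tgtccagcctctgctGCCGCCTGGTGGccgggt
Upstream of Myl2, chr5:122089082-122089127: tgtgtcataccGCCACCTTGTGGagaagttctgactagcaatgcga

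How well did the libraries place the same footprint? Wide footprints numbered 20546 in replicate 1 and 13953 in replicate 2, and members were 50.6% of the former and 74.5% of the latter. The median member was 35 bp wide in replicate 1 (the quartiles were 32 and 41 bp) and 34 bp in replicate 2 (31 and 38 bp). Starts differed by a median of 1 bp and ends by a median of 1 bp, and 62.9% of members had both edges within 2 bp. Both edges were identical in 1419 members, 13.7%. More members were wider in replicate 1 (5557) than in replicate 2 (2716), and 2117 had equal width. As a description across 10390 members that share peaks and sequence between the libraries, the widths correlated with Pearson's r = 0.69 and Spearman's rho = 0.67.

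The rule's threshold cut through a continuous range of widths. Members of exactly 30 bp in replicate 1 numbered 924, had a median peak signal of 4.08, and held a CTCF core in 18.1%. Just outside, 1067 footprints of 29 bp in replicate 1 matched one of at least 29 bp in replicate 2. Their median signal was 4.32 and 16.7% held a CTCF core. Of the 10156 wide footprints of replicate 1 that are not members, 9835 still overlapped a footprint of replicate 2, which was 24 bp wide at the median and 25 to 29 bp wide in 4407 cases. Only 321 had no footprint of replicate 2 beneath them.

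Widths fell off steeply past 49 bp: 95 members had 49 bp and 33 had 50 bp in replicate 1. All wide footprints fell in the same place, from 125 to 52 in replicate 1 and from 42 to 12 in replicate 2. The part of the caller's settings in this fall was not tested. Distal members with a CTCF core, when 1 mismatch was allowed, showed 2 peaks of width, with 462 members at 32 bp, 49 at 38 bp and 150 at 43 bp. Promoter members declined from 359 at 32 bp to 123 at 43 bp. Distal members without such a core went from 325 to 113 over the same widths.

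**Figure D1:**
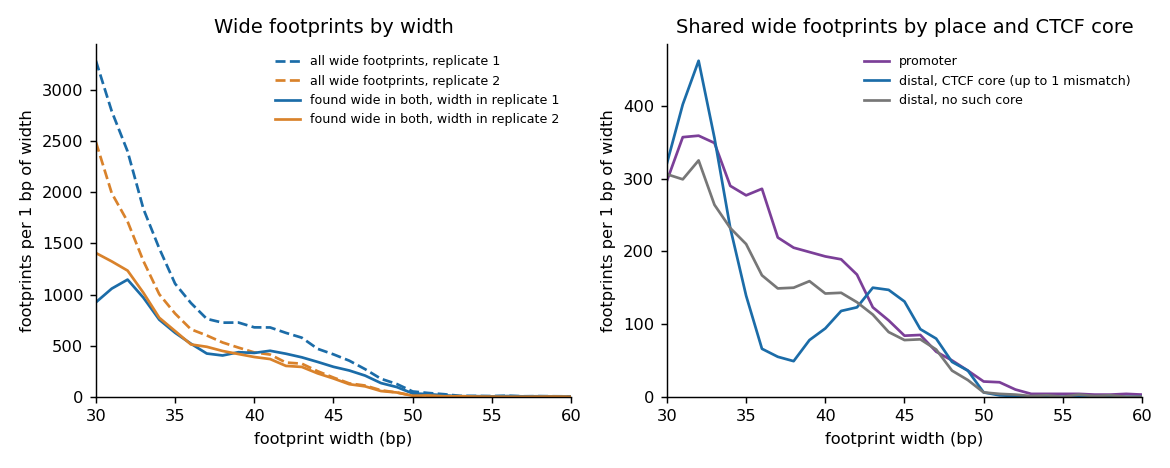
Number of footprints (vertical axis) by width in bp (horizontal axis). On the left, dashed lines are all wide footprints of each replicate and solid lines those found wide in both, by the width in each replicate. On the right, shared wide footprints by their width in replicate 1, split by place and CTCF core; the distal CTCF line has a peak at 32 bp and another at 43 bp.

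Members lay in both promoters and distal elements. Promoter members are those whose midpoint is at most 1000 bp away from the TSS of a protein-coding gene, and 4017 were (38.7%, with a 95% Wilson interval of 37.7% to 39.6%). The other 6373 were distal. Over all footprints of replicate 1, which include the members, 32.01% were at promoters. Among narrower footprints shared by the libraries the promoter share was 39.1%, so members did not stand out from these. By the annotation (GENCODE M21), 4930 members were intergenic, 3156 intronic, 1143 in untranslated exons, 475 in other exons, 447 in non-coding genes and 239 in coding exons. Coding exons held 2.30% of members and 4.80% of all footprints.

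Promoter members sat upstream of the start site. Their median midpoint was at -57 bp, against -19 bp for all promoter footprints of replicate 1. The last 100 bp before the TSS held 42.9% of promoter members (41.4% to 44.4%) and 28.0% of all promoter footprints (27.7% to 28.2%). Past the TSS the order was the other way round: 50 to 1000 bp downstream held 12.6% of promoter members (11.6% to 13.6%) and 29.4% of all promoter footprints (29.1% to 29.6%). These intervals cover counting error over footprints only, and footprints of 1 peak are not independent. The distal members were 18471 bp from the nearest TSS at the median, and all distal footprints 24580 bp.

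**Figure D2:**
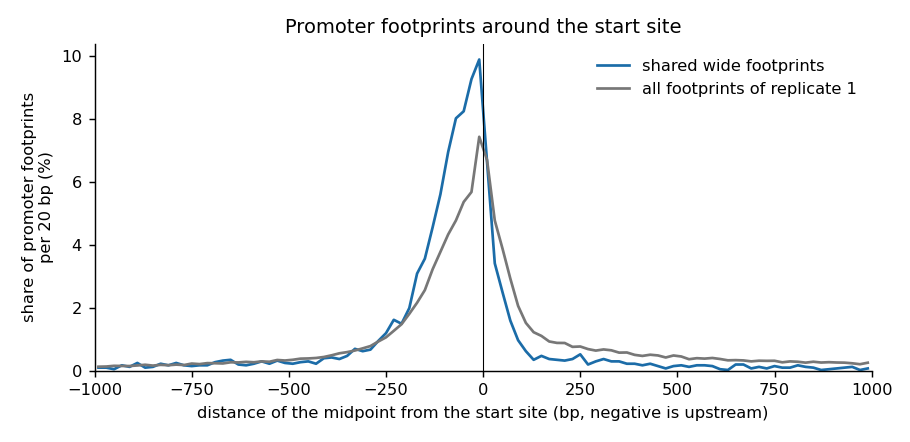
Share of promoter footprints per 20 bp (vertical axis, percent) by distance of the midpoint from the nearest protein-coding TSS (horizontal axis, bp, negative is upstream). The line of shared wide footprints lies above that of all footprints of replicate 1 just upstream of the start site and below it downstream.

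Host peaks of members were strong. The strict peak list held the midpoint of 9435 members in replicate 1 (90.8%) and of 9436 in replicate 2 (90.8%), against 67.6% of all footprints in replicate 1 and 66.8% in replicate 2. The median signal of these peaks, a value the authors give each peak, was 4.93 in replicate 1 and 4.44 in replicate 2. It was 3.48 for wide footprints of replicate 1 that were not shared, 2.86 for shared narrower ones and 1.62 for narrower ones that were not shared. The false discovery rate of the cut rate at the midpoint followed the same order. Its median −log10 was 30.6 for members, 20.9 for wide footprints that were not shared, 14.4 for shared narrower ones and 5.43 for the rest. As a description over the 9239 members in strict peaks of both libraries, host signals correlated with Spearman's rho = 0.98. Promoter members had a median host signal of 13.7 in replicate 1 and 11.8 in replicate 2. Distal members had 3.26 and 3.00.

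The share of strict peaks that held a member increased with signal in both libraries and both places. Among distal peaks of replicate 1 it was 0.73% below a signal of 1, 17.7% from 2 to 4 and 50.9% at 16 or more. Promoter peaks held a member less often than distal peaks at every signal range in both libraries. At 16 or more the shares were 42.0% and 50.9% in replicate 1. They were 46.6% and 54.8% in replicate 2, where the intervals overlap. From 4 to 8, 11.1% of 4273 promoter peaks and 31.4% of 4656 distal peaks did in replicate 1, and 12.8% and 35.5% did in replicate 2. The Wilson intervals of the promoter and distal shares in this range do not overlap in either library (10.2% to 12.1% and 30.0% to 32.7% in replicate 1). The part of sequencing depth in these shares was not tested.

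**Figure D3:**
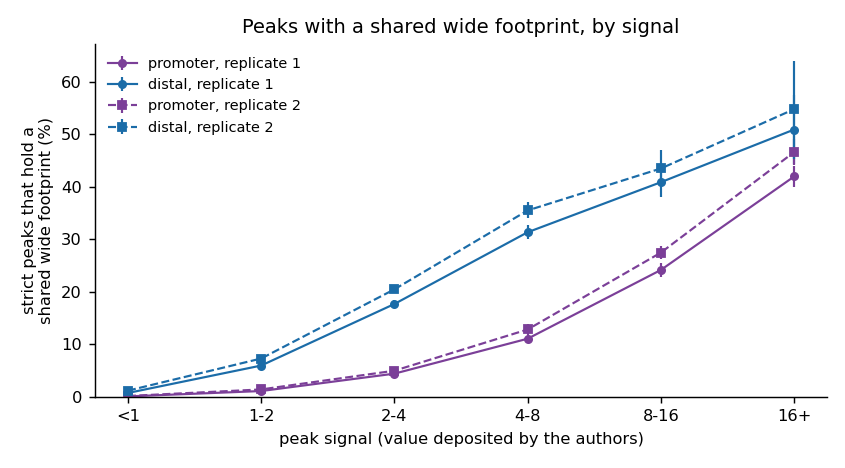
Share of strict peaks that hold a shared wide footprint (vertical axis, percent, bars are 95% Wilson intervals) by range of the authors' peak signal (horizontal axis). Solid lines are replicate 1 and dashed lines replicate 2. The shares go up from left to right in each of the 4 lines, and distal peaks lie above promoter peaks of the same library in each range.

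Most host peaks held a single member: 7670 strict peaks of replicate 1 had 1, 727 had 2, 101 had 3 and 2 had 4. Members were near the middle of their peaks, at a median of 20 bp from the centre, against 39 bp for all footprints in strict peaks. Of the 955 members with their midpoint outside every strict peak of replicate 1, 758 (79.4%) lay within 50 bp of one. The median distance was 18 bp, 484 of the 955 overlapped such a peak, and 685 were at promoters (71.7%). The false discovery rate of the local cut rate at their midpoints had a median −log10 of 61.0, against 28.1 for members inside strict peaks. These 2 sets differ in place, and the median was 82.8 for all promoter members and 18.4 for all distal members of replicate 1. In all, 743 members were outside all 4 peak lists.

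The CTCF core was the most frequent of the 33 motifs under members. A core lay within the footprint widened by 5 bp on each side in 1394 members, or 13.4% (12.8% to 14.1%). To compare footprints of different widths, matches were also counted in 50 bp around each midpoint on both strands. There 13.4% of members held a core, against 1.8% of all footprints of replicate 1, 8.21% of wide footprints that were not shared and 2.01% of narrower shared ones. The share differed by place: 20.7% of distal members (19.7% to 21.7%) and 1.89% of promoter members held it. Over all distal footprints the share was 2.50% (2.44% to 2.57%).

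With up to 1 mismatch allowed, which was chosen after seeing the data, the core was in 33.5% of members and 5.65% of all footprints. It was in 50.1% of distal members. The same letters read in reversed order, which is another sequence, were in 0.20% of members and 0.13% of all footprints. The peaks of members with an exact core were about as strong as those of distal members without one, with median signals of 3.15 and 3.31 in replicate 1 and 3.06 and 3.00 in replicate 2. Nearly all of these members (99.6%) were in strict peaks of replicate 1. The core's share followed the 2 peaks of width. Among distal members it was 26.3% at 30 to 34 bp, 9.98% at 35 to 39 bp, 17.9% at 40 to 44 bp and 19.0% at 45 to 49 bp.

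The 2 kinds of CTCF footprint differed in the upstream edge. In the 1393 members with exactly 1 core, the number of bases between the core and the upstream edge of the footprint fell into separate groups. In replicate 1 the short group (up to 12 bp, 959 members) had a median of 6 bp with quartiles of 5 and 6 bp. The long group (16 bp or more, 415 members) had a median of 22 bp with quartiles of 20 and 23 bp. Only 19 members lay between in replicate 1, and 41 in replicate 2. These limits were set after seeing the data. Members shown above near Rdh8, Bcan and Acvrl1 are of the short group, and those near Ptma, Rasl11b and Srxn1 of the long group.

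The downstream edge formed 1 main group, at a median of 13 bp past the core in both libraries. A small rise lay at 7 bp, with 47 members in replicate 1 and 67 in replicate 2, against 32 and 37 at 8 bp. Within the long group the downstream edge was closer to the core than within the short group. The medians were 10 and 14 bp in replicate 1, and 8 and 14 bp in replicate 2. Since a member must reach 30 bp, the upstream flank limits the downstream flank that the rule lets in: a short upstream flank needs a long downstream one. Of all 5127 footprints of replicate 1 with exactly 1 core, 1551 were 25 to 29 bp wide and so fell short of the rule.

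The libraries mostly gave a site the same kind of edge. Of the 959 members short in replicate 1, 940 were short in replicate 2. Of the 415 long in replicate 1, 314 were long in replicate 2, 75 were short and 26 lay between. The long group was thus smaller in replicate 2, with 328 members.

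**Figure D4:**
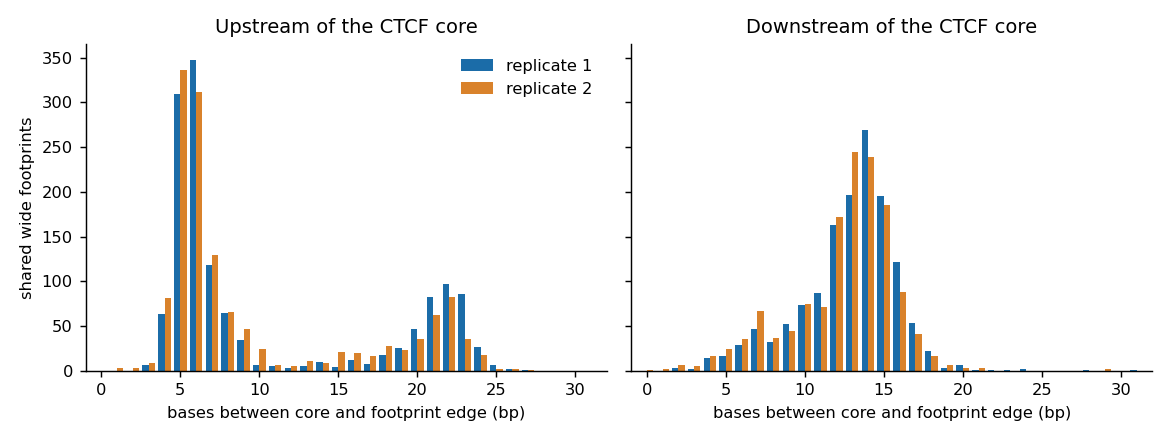
Shared wide footprints with 1 CTCF core (vertical axis, count) by the number of bases between the core and the footprint's edge (horizontal axis, bp), upstream on the left and downstream on the right. Blue bars are replicate 1 and orange bars replicate 2. The upstream edges form a group around 6 bp and another around 22 bp in both. The downstream edges form 1 main group around 13 bp, with a small rise at 7 bp.

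Sequence upstream of the core differed between the groups, and the rule did not use sequence. TGCANT was added after seeing the data, and its place before the core and the single bases below were not among the planned counts. TGCANT began exactly 17 bases before the core in 102 of 415 long members (24.6%, 20.7% to 28.9%) and in 4 of 959 short members (0.42%, 0.16% to 1.07%). Grouped by the edges of replicate 2, it was in 26.2% of 328 long and 1.56% of 1024 short members. Wide footprints of replicate 1 that are not members showed the same order, with 15.9% of 226 long and 1.04% of 575 short ones. Single bases differed as well. G stood 16 bases before the core in 76.6% of long and 31.5% of short members. T stood 12 bases before it in 76.9% and 35.2%, and C stood 10 bases before it in 74.0% and 27.6%. Downstream bases were not all alike either. G stood 18 bases after the core's first base in 37.1% of long and 57.2% of short members. A stood 12 bases after that base in 58.6% and 53.1%. Host peak signal hardly separated the groups, with medians of 3.00 and 3.21 in replicate 1 and 2.94 and 3.11 in replicate 2.

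In distal members with no core, even with 1 mismatch, the most frequent 8-mers were CTGCCAAG in 102 members (3.20%, against 1.68% of all such distal footprints) and GCGCCCCC in 86 (2.70%, against 0.41%). The 8-mer GAACTGCA, the seventh in order, whose reverse complement TGCAGTTC begins with TGCANT, was in 76 of these members (2.39%). It was in 0.33% of all distal footprints without a core. TGCANT anywhere in 50 bp was found in 17.9% of all distal members, those with a core included, and in 9.08% of all distal footprints.

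The 8-mers held by most members (each with its reverse complement) were pieces of GC boxes and of the CTCF core. CCCCGCCC was in 728 members (7.01%, against 3.55% of all footprints), GCCCCGCC in 660 and CCCGCCCC in 636. AGGGGGCG was in 645, CAGGGGGC in 639 (6.15%, against 1.24%), AGAGGGCA in 567, AGAGGGCG in 555, AGGGGGCA in 496, CAGAGGGC in 484 and CCACCAGG in 467. In promoter members the GC-box 8-mer CCCCGCCC led with 649 members (16.2%). In distal members the CTCF 8-mer AGAGGGCA led with 537 (8.43%, against 1.503% of all distal footprints).

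The SP/KLF, NRF1, CREB and NFY sites were more frequent in members than in all footprints. The SP/KLF box GGGGCGGGG was in 10.8% of promoter members (9.86% to 11.8%) and 5.00% of all promoter footprints. Over all places it was in 4.66% of members, against 2.09% of all footprints. Wide footprints that were not shared lay between, with 3.78% for SP/KLF and 2.50% for NRF1. GGGCGG, a shorter GC box added after seeing the data, was in 14.2% of members, 13.6% of narrower shared footprints and 12.6% of wide ones that were not shared. It was in 30.1% of promoter members and 22.5% of all promoter footprints, and 9.26% of promoter members held 2 or more copies, against 3.75%. The NRF1 site GCGCANGCG was in 7.59% of promoter members (6.81% to 8.45%) and 2.81% of all promoter footprints, and in 3.21% of members and 1.08% of footprints in all. GC content over 50 bp was 66% at the median in both sets of promoter footprints.

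The CREB site TGACGTCA was in 100 members (0.96%), against 0.298% of all footprints and 0.38% of wide ones that were not shared, and in 1.92% of promoter members. The NFY site was in 71 (0.68%), against 0.309%, with 0.51% in wide footprints that were not shared and intervals that overlap theirs, and in 1.59% of promoter members against 0.65% of all promoter footprints. CCAAT alone, added after seeing the data, was in 12.7% of promoter members and 7.68% of all promoter footprints, but over all places its share in members (8.65%) was near that in wide footprints that were not shared (8.38%). The ZNF143 site ACTACAATT was in 19 members (0.18%), against 0.041% of all footprints. It was in 0.069% of wide footprints that were not shared, with intervals that overlap. Although few, the 19 were 13.8% of the 138 footprints with that site, against 22.8% for the CTCF core, 9.92% for CREB and 9.09% for NRF1. Members were 3.07% of all footprints. The ETS site CCGGAAG was in 3.36% of promoter members (2.85% to 3.96%) and 2.74% of all promoter footprints (2.64% to 2.84%). The E2F site was in 0.32% and 0.35%.

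The E-box CAGCTG and the MEF2 and AP-1 sites were less frequent in members than in all footprints. The E-box CAGCTG was in 3.53% of members, against 6.93% of all footprints. In distal members it was in 4.39% (3.92% to 4.92%), against 8.57% of all distal footprints. The MEF2 site was in 10 members (0.096%), against 0.263%, and the AP-1 site TGANTCA in 83 (0.80%), against 1.8%. Wide footprints that were not shared were low as well, with 4.53% for CAGCTG, 0.069% for MEF2 and 1.19% for AP-1. The SRF site, found at many muscle and serum-responsive genes, was in 0.20% of members and 0.17% of all footprints, with intervals that overlap, as they do for HSF (0.69% and 0.84%) and STAT (0.92% and 1.03%). For CAGCTG, MEF2 and AP-1 the intervals of distal members and of all distal footprints do not overlap. The member with the MEF2 site in the strongest peak among those free of exons is the one shown at the promoter of Jun, an AP-1 subunit, with peak signals of 25.7 and 21.4.

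**Figure D5:**
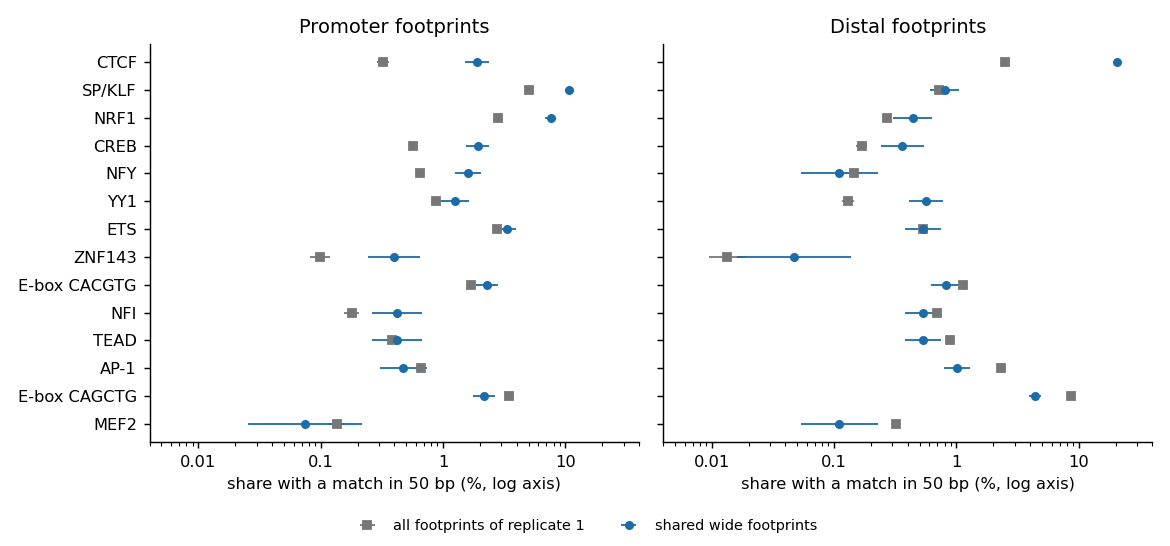
Share of footprints with a motif match in 50 bp (horizontal axis, percent, log axis, bars are 95% Wilson intervals) for 14 motifs, at promoters on the left and distal on the right. Blue circles are shared wide footprints and grey squares all footprints of replicate 1; CTCF is to the right of the grey square in both panels, and E-box CAGCTG and MEF2 are to the left of it.

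None of the 33 motifs was found in 6827 members (65.7%), 1 was found in 3222 and more than 1 in 341. Exact consensus letters find only the closest sites, and no match says only that these letters are not in the window. When a CTCF core with 1 mismatch was also counted, 2547 distal members (39.97%) were without any match.

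Members over tRNA genes were few but took a large part of the footprints there. Of 343 footprints of replicate 1 that overlapped a RefSeq tRNA gene, 85 were members (24.8%), against 3.07% of all footprints. They lay over 82 of the 190 tRNA genes with any footprint. This set was looked at after seeing the data. The members had a median width of 37 bp in replicate 1 (from 30 to 56) and 36 bp in replicate 2. Their midpoints were 57 bp from the 5′ end of the tRNA gene at the median, with quartiles of 55 and 60 bp, in genes of 73 bp at the median. GTTCGANNC was in 67 of the 85, and in 0.14% of all footprints. Since the B box is an internal element of tRNA genes, the first share follows in part from how the set was picked. The share among other footprints over tRNA genes was not counted. The median signal of their host peaks was 3.09 in replicate 1 and 3.06 in replicate 2, close to that of all distal members. The one at n-TLaag4 also lies 160 bp upstream of the start site of Polr3e, a subunit of RNA polymerase III.

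Of the 10 widest members, 9 are described and 1 is not reported here. They were picked on their width in replicate 1, so a smaller width in replicate 2 is partly given by the choice. Widths of most of these differed more between libraries than those of a typical member. The widest was 80 bp in replicate 1 and 45 bp in replicate 2, 30.4 kb upstream of Ndufb4, a subunit of respiratory complex I, in peaks of signal 6.36 and 4.79. The member with 2 CTCF cores, in an intron 4.87 kb upstream of a start site of Sec22c, was 75 and 41 bp wide. Only its wider footprint, that of replicate 1, covers both cores. Of the others, Pnrc1 had 68 and 40 bp, R3hdm1 63 and 42, Epb41 62 and 32, Pfn4 61 and 40, Spsb3 60 and 58, Idh1 60 and 34, and Park7 60 and 32. These 7 were at promoters, and the member at Idh1 was in no strict peak. Of these 7, the member at Spsb3 differed least in width between the libraries.

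The strongest host peaks of promoter members were at Mplkip (59.97 and 48.2 in replicates 1 and 2), Dynlt1b (57.2 and 48.4), Bahcc1 (54.6 and 46.8), Dnpep (50.5 and 37.5) and Snrnp70 (48.1 and 36.8), which encodes a protein of the U1 spliceosomal particle. Those of distal members were near Gm21887 on chromosome X (46.8 and 35.04), Cct8l1 (44.3 and 34.9), Tfap4 (43.8 and 32.2), Gm15319 (41.1 and 34.03) and Gm31371 (35.3 and 30.7). The members near Gm15319 and Gm31371 lie on chromosome 8. Most bases of the Gm15319 member also occur, in the same order, in another member on chromosome 8. Members near Gm21887 share a long run of bases with each other. How reads from repeated sequence were placed is not stated, and its part in these signals was not tested. Whole sequences recurred among few members: 6 members shared their sequence with another, and 24 lay whole within another member's sequence.

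Genes with most members within 50 kb of a start site were Sept9, a septin of the cytoskeleton (10 of its 161 footprints), Jarid2, a partner of Polycomb complexes (9 of 56), Ptma (9 of 100) and Sh3pxd2a (9 of 167). Atoh8, Bahcc1 and Sgk1 followed with 8 each. CTCF cores with up to 1 mismatch were in 5 of the 9 at Sh3pxd2a and in 1 of the 9 at Jarid2. The members at Jarid2 made up 16.1% of its footprints, against 3.07% over all footprints of replicate 1. These genes were picked for their number of members, so a high share is partly given by the choice.

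Which genes had a member at the promoter? Of 21911 protein-coding genes, 3407 had at least 1 member within 1000 bp of a start site, or 15.5%. Set against the 14022 genes with a strict peak there, the 3407 are 24.3%. Some promoter members lie outside strict peaks, and genes without such a peak were not taken out of the 3407. The share among the 14022 is thus at most 24.3%. Further, 3601 genes (16.4%) were nearest to a distal member within 50 kb. A promoter window held start sites of more than 1 gene for 587 members.

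Marker genes of the tissue were open: all 10 skeletal muscle markers (Acta1, Ckm, Des, Ttn, Mylpf, Tnnt3, Actn3, Pygm, Mb and Myod1) had a strict promoter peak in both libraries. So did 4 of 5 endothelial, 4 of 4 fibroblast, 3 of 3 smooth muscle, 2 of 3 satellite cell and 0 of 4 macrophage markers. Among the 10 muscle markers, Mylpf had a member at its promoter, and Des, Ttn and Tnnt3 had a distal member. Over all genes with an open promoter at most 24.3% had a promoter member, and 16.4% of all genes were nearest to a distal member. The marker counts are too small to set beside these shares.

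Genes for contraction had members at their promoters no more often than all genes. Set against genes with an open promoter in the same way as all genes, the 6 lists that follow had 8.33% to 16.7%. These are below the 24.3% over all genes, and the lists were not tested. The counts were 3 of 20 for the sarcomere and Z-disc (Myom1, Mybpc2 and Cryab), 2 of 15 for fast fibres (Mylpf and Tpm1), 1 of 14 for slow fibres (Atp2a2, the calcium pump of slow muscle) and 2 of 15 for excitation-contraction coupling (Jph1 and Bin1). They were 2 of 15 for the dystrophin complex (Dag1 and Sntb2) and 1 of 12 for the neuromuscular junction (Ache, acetylcholinesterase). At Mylpf, the fast myosin regulatory light chain, the member was 51 bp wide in replicate 1 and 47 bp in replicate 2, lay 154 bp upstream of the start site and had peak signals of 11.7 and 10.1. At Dag1, which encodes dystroglycan, it was 45 and 44 bp wide with signals of 32.3 and 28.7. The member of Cryab was 39 bp wide in both libraries and in no strict peak. That of Myom1 is nearer to a start site of Myl12a.

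Near contractile genes, distal members were common and mostly carried CTCF-like letters. Against the 16.4% of all genes nearest to a distal member, the counts were 7 of 20, 5 of 15, 5 of 14 and 6 of 15 genes in the lists of sarcomere, fast fibre, slow fibre and excitation-contraction coupling. Most other lists were also above that share, up to 9 of 19 for the circadian clock, and the neuromuscular junction list had 0 of 12. Over these 4 lists, 21 of 60 genes were nearest to 26 distal members. A CTCF core with up to 1 mismatch was in 17 of the 26, CAGCTG in 1 and MEF2 in 0, counts too small to set beside the 4.39% and 0.11% of all distal members. Over all distal members the core's share was 50.1%. Host signals of the 26 ran from 1.58 to 17.9 in replicate 1, with a median of 3.27. The one at Casq1, calsequestrin of fast muscle, had signals of 11.6 and 10.7. The one 11.8 kb upstream of Myl2, the slow regulatory light chain, was 46 bp wide in replicate 1 and 30 bp in replicate 2.

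Genes of regulators and of metabolism had members at promoters more often than the 15.5% of all genes, and nearly all of these genes had an open promoter. The counts were 7 of 21 for myogenic factors and cofactors, 6 of 19 for the circadian clock, 7 of 19 for mitochondria and fatty-acid oxidation, 5 of 17 for glycolysis and glycogen, and 6 of 19 for growth, atrophy and proteostasis. They were 8 of 26 for ribosomal proteins and 7 of 15 for housekeeping genes. Set against genes with an open promoter in the same way as all genes, the shares ran from 29.4% to 46.7%. These are closer to the 24.3% over all genes, and the lists were not tested.

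At Mef2d, a MEF2 factor, the promoter member was 48 and 47 bp wide, 73 bp upstream of the start site, with signals of 14.7 and 11.97. At Esrra, a nuclear receptor of mitochondrial genes, it was 31 and 30 bp wide with signals of 37.0 and 31.5. The member at Ldha, lactate dehydrogenase A, was 39 and 41 bp wide, 31 bp upstream, with signals of 13.9 and 12.3. At Cry1, a repressor of the clock, it was 47 and 45 bp wide and held an NRF1 site. Among distal members, that 1.82 kb upstream of Per1 had signals of 35.1 and 27.2, and that 1.37 kb downstream of a start site of Nr1d1 had 33.05 and 24.8.

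For lists of other cell types, beside the 15.5% of all genes, the counts of genes with a promoter member were 0 of 12 for endothelium, 0 of 12 for macrophages and lymphocytes, 0 of 10 for hepatocytes and neurons, 1 of 11 for fibroblasts (Fn1), and 1 of 9 for smooth muscle and pericytes (Myh11). An open promoter was seen for 10 of the 12 endothelial, 1 of the 12 macrophage and lymphocyte and 4 of the 10 hepatocyte and neuron genes. Satellite cells had 3 of 13 and Schwann cells 3 of 8. At Egr2, a transcription factor of myelinating Schwann cells, the member was 34 and 30 bp wide, 105 bp upstream of the start site, with signals of 11.3 and 9.21. At Pmp22, a myelin protein, it was 43 bp wide in both libraries with signals of 5.62 and 4.55. In bulk tissue, few nuclei of a type and weak opening in each cannot be told apart.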

How the data were processed

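DNase-seq data of 2 libraries were used as deposited. Per the labels all files are on mm10 (GRCm38) and each library was processed alone. The sources used here do not name the aligner or the callers of peaks and footprints. The deposited peak lists (strict and permissive, told apart by their number of lines) give the authors' signal per peak, on a scale that is not stated. The deposited footprint lists give 1 false discovery rate (0.01) for every footprint. From the authors' files of q-values for the cut rate at each base, kept where under 0.05, the value at each midpoint was read as −log10. Read depth is unknown, so 95% Wilson intervals cover counting error over footprints only.

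Members, the 20 gene lists and the 33 motifs were chosen with earlier results of these data known, and motifs added later are named as such. Named members were the 10 widest, the 5 promoter and 5 distal members in the strongest peaks, up to 3 promoter and 2 distal members per gene list, the member in the strongest peak per motif, the 10 most frequent 8-mers, and the genes with most members. Motifs were searched on both strands as consensus letters, so that overlapping motifs (GGGCGG within GGGGCGGGG, CCAAT within NFY) share sites. No test was made, since there is 1 group of 2 libraries. Genes are from GENCODE M21, and sequence and tRNA genes from RefSeq GRCm38. Scripts ran in Python 3.11.15 with numpy 2.4.6, pandas 2.3.3 and pysam 0.24.0 and were tested on simulated data. The closing section gives how the results moved under other rules for width, overlap, promoters and peaks. Some items are not reported here.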

Additional observations from a re-analysis of the deposited data

How the results depend on the processing

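Under 55 alternative values, 27 stayed within the limits set for a like result (a count within 1.5 times, a share within its 95% Wilson interval, a median signal within 0.345, the SD of the 2 libraries' medians). With an overlap of at least 1 bp the number of members was 10393, and with 80% of both lengths 9472. Permissive peaks held the midpoint of 91.3%. The number of members moved to 25975, 3999 and 1788 with a minimum width of 25, 35 and 40 bp. At these widths the promoter share was 36.1%, 42.7% and 37.1%, the median signal 4.30, 5.67 and 5.33, and the CTCF share 11.2%, 8.90% and 11.8%. The strict-peak share moved to 93.3% at 40 bp. With wide footprints of 1 library alone (without replicate 1, and without replicate 2), the counts were 13953 and 20546, the promoter shares 38.97% and 37.4%, the strict-peak shares 89.7% and 88.5%, the median signals 4.23 and 4.18, and the CTCF shares 11.98% and 10.8%. With coordinates and peaks of replicate 2 the median signal was 4.44. Promoter windows of 500 and 2500 bp gave 35.7% and 44.1%, and start sites of all annotated transcripts 44.6%. A strict peak that only touches the member gave 95.5%. The last changes were chosen after seeing the data: a CTCF core with up to 1 mismatch gave 33.5%, and leaving out members soft-masked over more than 50% of their length gave a strict-peak share of 91.7%. No paired analysis was possible because the libraries form 1 group and no test was made. Read depth is unknown, so how far it limits the number of wide footprints in each library was not tested.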

Other observations

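YY1, a zinc finger protein of promoters and chromatin loops, had a site (AANATGGCG) in 0.83% of the shared wide footprints and in 0.37% of all footprints of replicate 1. Among distal ones the shares were 0.56% (0.41% to 0.78%) and 0.13%. Over all places, wide footprints of replicate 1 that were not shared had 0.61%, with an interval that overlaps that of the shared ones. Narrower shared footprints had 0.50%. The REST site, bound by a repressor of neuronal genes, was in 0.51% of wide footprints of replicate 1 that were not shared, in 0.19% of the shared ones and in 0.11% of all footprints. The NFI site was at 0.49% of shared wide footprints and 0.53% of all footprints, and the RUNX site TGTGGTT at 0.79% and 0.75%.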
